A study of Rattus norvegicus with 9 samples.

Results

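The genes described here encode 10 enzymes that modify and cross-link collagen: the lysyl oxidases Lox, Loxl1, Loxl2, Loxl3 and Loxl4, the lysyl hydroxylases Plod1, Plod2 and Plod3, and the prolyl 4-hydroxylase alpha subunits P4ha1 and P4ha2. They were chosen by name, as array entries whose probe table gives that symbol alone, and all 10 were found, each with 1 entry, among 14506 genes tested. Rat pancreatic stellate cells, the fibroblast-like cells that lay down scar matrix in the pancreas, were isolated from male Sprague Dawley rats on a Nycodenz density gradient. Dishes of 10 cm received equal numbers of cells, which were kept for 72 hours in Iscove's medium with 10% foetal bovine serum on uncoated plastic (4 arrays), on collagen I, the fibrillar collagen of scar (3 arrays), or on Matrigel, a laminin-rich extract of basement membrane (2 arrays). All groups shared the strain, sex, medium and time, and a fresh gradient isolate can hold other pancreatic cells. Sample titles carry an unexplained letter that recurs between surfaces: plastic has A, P, S and Z, collagen I has A, P and Z, and Matrigel has A and S. The replicate numbers used below only name arrays. Whether the arrays of a surface came from different rats is not stated, so a p-value here reflects the spread between arrays, which may be technical.

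Collagen chains are modified in the endoplasmic reticulum before they fold. Prolyl 4-hydroxylases, made of a catalytic alpha subunit and the shared beta subunit P4hb, form the 4-hydroxyproline that stabilises the triple helix, and lysyl hydroxylases form the hydroxylysine that later becomes a cross-linking site. Both kinds of enzyme need iron, oxygen, 2-oxoglutarate and ascorbate. After secretion, the copper-dependent lysyl oxidases oxidise lysine and hydroxylysine side chains, which then form covalent cross-links between collagen molecules and in elastin. In fibrosis these cross-links stiffen scar tissue, and several of the genes, among them Lox, Plod2, P4ha1 and P4ha2, are known targets of the hypoxia-inducible factors.

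The promoters are shown first so that the letters before each gene can be set beside its values. A RefSeq table on the build GRCr8 held the stretch from 250 bases before to 50 bases after the start for 8 of the 10 genes; Lox and Loxl2 had no entry. Those of 3 genes are printed 5′ to 3′ in the direction of the gene: Loxl1, with the largest difference on Matrigel, Loxl3, whose call on Matrigel held under every alternative run, and P4ha2, which was lower on both matrices. Capitals mark the core of the hypoxia response element, searched as ACGTG and GCGTG on both strands.
Loxl1, chr8:67612175-67612474, minus strand: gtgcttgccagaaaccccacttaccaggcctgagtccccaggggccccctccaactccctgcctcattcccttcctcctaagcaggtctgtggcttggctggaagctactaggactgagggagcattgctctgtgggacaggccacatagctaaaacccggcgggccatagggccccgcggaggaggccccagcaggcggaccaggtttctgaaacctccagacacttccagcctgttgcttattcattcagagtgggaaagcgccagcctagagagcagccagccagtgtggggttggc
Loxl3, chr4:117098108-117098407, plus strand: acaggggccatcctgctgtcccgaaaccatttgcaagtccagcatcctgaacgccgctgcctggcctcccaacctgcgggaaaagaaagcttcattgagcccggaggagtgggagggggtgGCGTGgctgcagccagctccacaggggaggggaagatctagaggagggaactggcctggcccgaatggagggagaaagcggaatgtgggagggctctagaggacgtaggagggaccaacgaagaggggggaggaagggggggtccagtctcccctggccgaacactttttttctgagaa
P4ha2, chr10:38743644-38743943, plus strand: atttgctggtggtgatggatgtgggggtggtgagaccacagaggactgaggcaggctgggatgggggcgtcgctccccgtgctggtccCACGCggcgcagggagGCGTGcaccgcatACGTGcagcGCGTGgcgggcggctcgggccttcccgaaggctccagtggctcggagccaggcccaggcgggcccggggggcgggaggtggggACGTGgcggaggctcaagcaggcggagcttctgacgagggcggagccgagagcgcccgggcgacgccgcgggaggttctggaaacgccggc

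The core appeared 5 times in the P4ha2 stretch, once in that of Loxl3 and not in those of Loxl1 and Loxl4. It appeared 4 times for Plod2, 3 times for P4ha1, 2 times for Plod3 and once for Plod1. With both forms pooled, 6 of 8 promoters held it, against 41.6% of all 33469 promoters of the same length. Of the 4 promoters whose genes passed on Matrigel against plastic, those of Loxl1, Loxl3, Loxl4 and P4ha2, 2 held it, and the other holders, Plod1, Plod2, Plod3 and P4ha1, belong to genes that did not pass. The core contains a CG, and the 8 promoters were rich in G and C, at 61.0% for Loxl1 to 73.7% for Plod2 against a median of 51.7%. Taken separately, ACGTG stood in 3 of 8 against 19.3% of all and GCGTG in 6 of 8 against 29.7%. The motif of TEAD factors, GGAATG, stood in the promoters of Loxl1 and Loxl3, 2 of 8 against 14.2% of all. The SMAD motif CAGAC was in 5 of 8 against 50.1%, the CCAAT box in 1 of 8 against 37.5%, and the AP-1 motif TGACTCA in 0 of 8 against 4.63%. All were searched on both strands, and a match is a description of letters, not of binding.

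Values are log2 expression as deposited. The array medians lay between 4.08 and 4.18, and the correlation across genes (not independent replicates) was 0.991 to 0.996 within a surface and 0.975 to 0.989 between surfaces. A level of log2 4.25, the 40th percentile of mean level, is used here as the border of dim signal. Every one of the 10 genes had a mean above it on each surface, with Loxl4 close to it. As a list, though not in every gene, the stellate and mesenchymal markers were bright. Their mean over 20 genes was 9.59 to 9.69 on plastic, 9.67 to 9.83 on collagen I and 9.15 to 9.33 on Matrigel. Yet 2 of the 20 had a mean over the arrays under the dim level. Gfap was far under it everywhere, with surface means from 2.55 to 2.73. Of these 20 genes 3 rose and 5 fell on Matrigel against plastic, and 2 rose and 1 fell on collagen I. Beside these and the marker counts below, limma called 10.4% of all genes in either direction on Matrigel against plastic and 6.12% on collagen I. Plin2, of lipid droplets, rose by 1.88 ± 0.12 on Matrigel (limma adjusted p = 0.000185), Des, the desmin gene, fell by 1.93 ± 0.13 (adjusted p = 0.000208) and Thy1, a fibroblast surface marker, fell by 2.04 ± 0.20 (adjusted p = 0.000935). Their part in the enzyme differences was not tested. The macrophage, islet and acinar marker means were higher on Matrigel. The mean of 20 macrophage markers was 7.32 to 7.53 on Matrigel, 6.11 to 7.10 on plastic and 6.11 to 7.01 on collagen I, and 2 of the 20 rose on Matrigel against plastic. In that comparison 10 of the 20 had an unadjusted limma p under 0.05, and only 1 had a lower mean. The mean of 15 islet markers was 5.75 to 6.75 on Matrigel, 4.56 to 5.28 on plastic and 4.77 to 5.36 on collagen I, and 9 of the 15 rose. Of these islet markers 8 had a mean over the arrays under the dim level. The mean of 17 acinar markers was 4.05 to 4.71 on Matrigel, 3.50 to 3.68 on plastic and 3.56 to 3.90 on collagen I, and 4 rose. Of 11 duct and epithelial markers limma called 0 in either direction (4 at an unadjusted p under 0.05), and of 11 endothelial markers 1 rose and 1 fell. The duct and epithelial mean was 3.17 to 3.82 on Matrigel, 3.05 to 3.16 on plastic and 3.09 to 3.18 on collagen I. Of those 11 markers 9 had a mean under the dim level. Mesothelial markers were lower: the mean of 4 was 5.51 to 6.05 on plastic, 5.02 to 5.19 on collagen I and 5.087 to 5.090 on Matrigel, and 1 of the 4, Wt1, fell on both matrices. Among defining markers, Ptprc of leukocytes read 6.38 to 6.61 on Matrigel and 4.84 to 6.005 on plastic, Csf1r of macrophages 8.47 to 8.86 and 6.99 to 8.23, Ins2 of beta cells 10.02 to 11.19 and 7.53 to 9.37, and Cpa1 of acinar cells 4.82 to 6.93 and 2.81 to 3.47. Pecam1 of endothelium stayed under the dim level on all arrays, at 2.51 to 3.16. In these bulk samples fewer cells of a type and less RNA per cell cannot be told apart, and the part of other cells' RNA in the differences below was not tested.

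On Matrigel against plastic, all 5 lysyl oxidase genes and P4ha2 fell, which made 6 of the 10 enzyme genes lower and 0 higher by limma (adjusted p under 0.05 over all genes). The background was 10.4% of genes called in either direction and 5.85% called lower. The largest fall was 3.30-fold, for Loxl1, and the smallest of the 6 was 1.38-fold, for Lox. No lysyl hydroxylase gene passed, nor did P4ha1. All 10 means were lower on Matrigel, with a median difference of -0.59 against -0.01 over all genes, and for 9 of the 10 every Matrigel array lay below every plastic array, which held in the same direction for 16.6% of all genes.

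**Figure D1:**
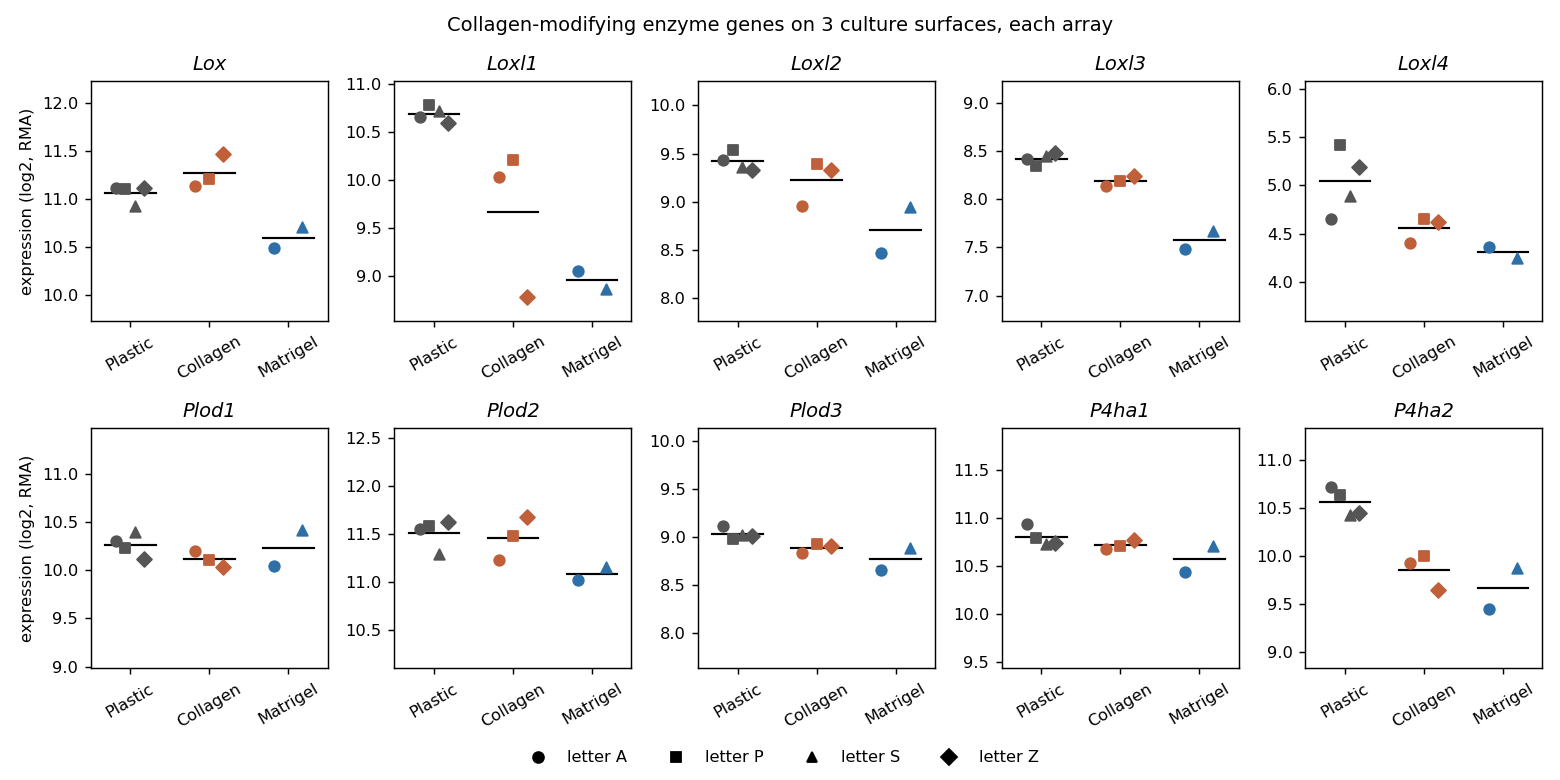
Expression (log2, RMA, vertical axis) of the 10 enzyme genes on each of 9 arrays, by surface; points are arrays, shapes give the title letter, black lines are group means, and every panel spans the same number of log2 units. Loxl1 lay between 10.59 and 10.77 on plastic and at 8.86 and 9.05 on Matrigel, and its collagen I array of letter Z stood at 8.78, apart from the other collagen I arrays.

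Loxl1 encodes a lysyl oxidase that is needed for elastic fibre upkeep and also acts on collagen. It read 10.65, 10.77, 10.72 and 10.59 on plastic and 9.05 and 8.86 on Matrigel. The groups were apart by 1.53 on the log2 scale, far more than the spread within either. The difference was -1.72 ± 0.33 (log2, SE; limma adjusted p = 0.0139).

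Loxl3 encodes a lysyl oxidase with scavenger receptor domains, as do Loxl2 and Loxl4. It read 8.42, 8.34, 8.45 and 8.48 on plastic and 7.48 and 7.67 on Matrigel. Its plastic arrays differed little, with an SD of 0.06, and the Matrigel arrays lay 0.68 below the lowest of them. The difference was -0.85 ± 0.08 (limma adjusted p = 0.000643), and no array, when left out, ended this call (adjusted p from 0.00131 to 0.00750).

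P4ha2 encodes the alpha subunit of the prolyl 4-hydroxylase that predominates in chondrocytes and some other matrix-forming cells. It read 10.72, 10.64, 10.43 and 10.45 on plastic and 9.45 and 9.88 on Matrigel. The Matrigel arrays differed from each other by more than the plastic arrays did, yet both lay below all of them. The difference was -0.90 ± 0.15 (limma adjusted p = 0.00743), a fall of 1.86-fold.

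Loxl2 encodes a secreted lysyl oxidase that cross-links collagen IV in basement membranes as well as fibrillar collagen. It read 9.43, 9.54, 9.36 and 9.33 on plastic and 8.47 and 8.95 on Matrigel, with the letter A array the lower. The difference was -0.71 ± 0.16 (limma adjusted p = 0.0247).

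Lox encodes the founding lysyl oxidase, the main cross-linker of fibrillar collagen. It read 11.11, 11.11, 10.93 and 11.12 on plastic and 10.49 and 10.71 on Matrigel. The difference was -0.47 ± 0.11 (limma adjusted p = 0.0342), the smallest among the genes that passed.

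Loxl4 encodes the last of the lysyl oxidase-like enzymes, related to Loxl2 and Loxl3. It read 4.66, 5.43, 4.89 and 5.19 on plastic and 4.36 and 4.25 on Matrigel. Its Matrigel values sit just above the dim level, while its plastic arrays spread from 4.66 to 5.43. The difference was -0.74 ± 0.19 (limma adjusted p = 0.0448), the call nearest to the threshold.

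Among the lysyl hydroxylases, Plod2, whose product hydroxylates the telopeptides and so sets the type of cross-link, read 11.55, 11.58, 11.29 and 11.63 on plastic and 11.03 and 11.15 on Matrigel. The groups did not overlap, but the difference of -0.42 (95% interval -0.74 to -0.11) did not pass (limma adjusted p = 0.0943). Plod3, whose product also adds sugars to hydroxylysine, differed by -0.26 (-0.45 to -0.07, adjusted p = 0.0892). Plod1, which acts on the helical part, read 10.31, 10.24, 10.39 and 10.12 on plastic against 10.05 and 10.42 on Matrigel, so its Matrigel arrays enclosed the plastic range, and its difference of -0.03 had an interval of -0.30 to 0.24 (adjusted p = 0.933). P4ha1, the main alpha subunit in most cells, differed by -0.23 (-0.44 to -0.01, adjusted p = 0.187). Without Matrigel replicate 1 the difference was -0.092 for P4ha1 and -0.15 for Plod3, and without Matrigel replicate 2 that of P4ha1 was -0.36 (adjusted p = 0.0734). Intervals are limma's for a single gene, without adjustment for the number of genes.

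The Matrigel calls rested on few arrays. Without Matrigel replicate 1 (letter A) only Loxl3 of the 6 passed: Lox, Loxl1, Loxl2, Loxl4 and P4ha2 had adjusted p = 0.206, 0.0719, 0.169, 0.144 and 0.0611, and Loxl2 then differed by -0.47. Leaving out Matrigel replicate 2 ended the calls of Loxl1 and Loxl4 (adjusted p = 0.0791 and 0.177), whereas Plod3 then passed, at -0.38 (adjusted p = 0.0414). Lox did not pass without plastic replicate 1, 2 or 4 or collagen replicate 2 (adjusted p = 0.0839, 0.0760, 0.0817 and 0.0554). Loxl2 did not pass without plastic replicate 1 or 2 (adjusted p = 0.0636 and 0.0596), and Plod2 did without plastic replicate 3, at -0.50 (adjusted p = 0.0494). Of the fits with 1 array left out, Loxl4 passed only in that without plastic replicate 1, its lowest plastic array (adjusted p = 0.0209), and had adjusted p = 0.0565 to 0.177 in the others. When plastic was limited to the arrays whose letters Matrigel shares, A and S, again only Loxl3 passed, whereas Lox, Loxl1, Loxl2, Loxl4 and P4ha2 had adjusted p = 0.182, 0.0940, 0.127, 0.107 and 0.0563, at differences of -0.42, -1.73, -0.69, -0.47 and -0.91. Within letter A the 5 lysyl oxidases and P4ha2 were each lower on Matrigel, by -0.30 for Loxl4 to -1.60 for Loxl1, and so they were within letter S, by -0.22 for Lox to -1.86 for Loxl1.

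**Figure D2:**
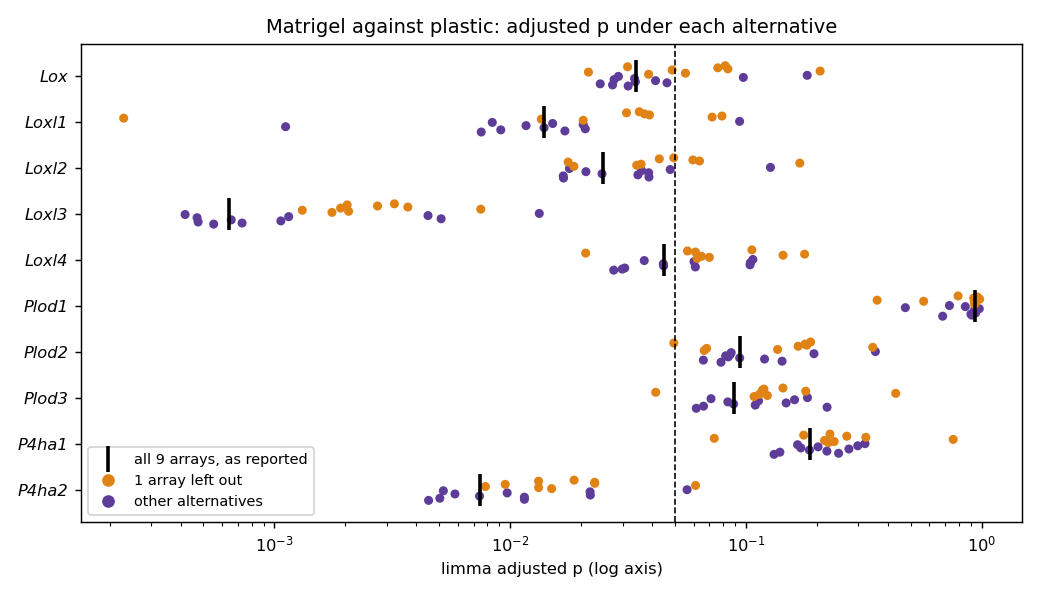
Adjusted p of limma (horizontal log axis) for Matrigel against plastic, for each of the 10 enzyme genes: the black bar is the value with all 9 arrays, orange points leave out 1 array each, purple points are the other alternatives, and the dashed line is 0.05. All points of Loxl3 lie left of the line, those of Lox, Loxl1, Loxl2, Loxl4 and P4ha2 fall on both sides, and those of Plod1 and P4ha1 lie to the right.

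On collagen I against plastic, P4ha2 fell 1.63-fold and was the only enzyme gene to pass, 1 of 10 against a background of 6.12% of genes called in either direction and 3.17% called lower. It read 9.93, 10.00 and 9.65 on collagen I, all below the 10.43 to 10.72 of plastic. The difference was -0.70 ± 0.13 (limma adjusted p = 0.0157), and within the letters A, P and Z it was -0.79, -0.64 and -0.80. The macrophage marker means of these groups overlapped, at 6.11 to 7.01 on collagen I and 6.11 to 7.10 on plastic. Limma called 0 of the 20 macrophage markers, and 10 had lower means on collagen I. Single markers differed in opposite directions, Adgre1 by -1.45 and Cd74 by 1.87 (limma adjusted p = 0.0934 and 0.0858). The mesothelial marker means did not overlap, at 5.02 to 5.19 against 5.51 to 6.05: all 4 markers had lower means on collagen I, and Wt1 differed by -1.02 ± 0.15 (limma adjusted p = 0.00490). Their part in the lower P4ha2 was not tested. P4ha2 did not pass without collagen replicate 3 or plastic replicate 1 (adjusted p = 0.0586 and 0.0541). This comparison and the last share the plastic arrays, so the lower P4ha2 in both is not an independent repeat.

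No lysyl oxidase gene passed on collagen I against plastic. Lox read 11.13, 11.21 and 11.46, just above the highest plastic array at 11.12, and its difference of 0.20 (95% interval -0.02 to 0.43) did not pass (limma adjusted p = 0.319) and was 0.11 without collagen replicate 3. Loxl1 read 10.03, 10.20 and 8.78, all below plastic, with the letter Z array as low as those on Matrigel. This array widened the spread to an SD of 0.77, and the difference of -1.01 ± 0.29 did not pass (adjusted p = 0.0926), whereas without it, collagen replicate 3, the difference was -0.57 and passed (adjusted p = 0.0164). Loxl3 was lower within all 3 letters, by -0.28, -0.15 and -0.23, and its difference of -0.23 (-0.39 to -0.07) did not pass (adjusted p = 0.102). Loxl4 differed by -0.48 (-0.87 to -0.10, adjusted p = 0.157). With the title letter as a fixed block, it was -0.55 and passed (adjusted p = 0.0392), which makes 2 enzyme genes lower. The labels state no pairing, and the collagen I and plastic arrays of letter A did not stand out as a pair. Loxl2 differed by -0.19 (-0.51 to 0.13, adjusted p = 0.531), or -0.058 without collagen replicate 1, and its collagen I and plastic arrays of letter Z hold the same deposited value.

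No other hydroxylase gene passed on collagen I. The difference was -0.05 (-0.33 to 0.22) for Plod2, -0.08 (-0.27 to 0.11) for P4ha1, -0.15 (-0.39 to 0.09) for Plod1 and -0.14 (-0.31 to 0.03) for Plod3, and their adjusted p lay between 0.352 and 0.876. P4ha1 was at -0.034 without plastic replicate 1. Of the 10 genes 5 had groups apart on collagen I and plastic, 4 of them lower, where 9.2% of all genes were apart and lower, and 1 higher, Lox, where 8.04% were.

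Between the matrices, Lox and Loxl3 were lower on Matrigel than on collagen I, 2 of 10 against 2.67% of genes called in either direction and 1.45% called lower. Lox differed by -0.67 ± 0.12 (limma adjusted p = 0.0283), and the Matrigel arrays, at 10.49 and 10.71, lay below the collagen I arrays, at 11.13 to 11.46. Loxl3 differed by -0.62 ± 0.08 (adjusted p = 0.0138), from 8.14, 8.20 and 8.25 on collagen I to 7.48 and 7.67 on Matrigel. P4ha2, low on both matrices, differed by -0.19, with an interval of -0.55 to 0.17 (adjusted p = 0.592), which leaves room for a moderate difference. Loxl1 differed by -0.71 (-1.51 to 0.09, adjusted p = 0.354), and by -1.16 without collagen replicate 3 (adjusted p = 0.0118). Loxl2, Plod2, Loxl4, P4ha1, Plod3 and Plod1 did not pass, at -0.52, -0.37, -0.25, -0.15, -0.12 and 0.12 (adjusted p from 0.157 to 0.689). Without Matrigel replicate 1 the differences of Loxl2, P4ha1 and Plod3 were -0.28, -0.013 and -0.0050, and without Matrigel replicate 2 those of P4ha1 and Plod3 were -0.28 and -0.24. Leaving out collagen replicate 2 brought Loxl1 to -0.44. For 5 of the 10 genes every Matrigel array lay below every collagen I array, which held for 16.4% of all genes. The Lox call ended when collagen replicate 2 or 3, Matrigel replicate 1, or plastic replicate 1, 2 or 4 was left out (in this order adjusted p = 0.0828, 0.0560, 0.113, 0.0611, 0.0516 and 0.0528), and that of Loxl3 when collagen replicate 2 was (adjusted p = 0.0501). With the title letter as a fixed block both calls ended, at -0.59 for Lox and -0.64 for Loxl3 (adjusted p = 0.133 and 0.0611). With only the arrays of the compared surfaces in the fit, neither Lox nor Loxl3 passed (adjusted p = 0.165 and 0.128), at the same differences.

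**Figure D3:**
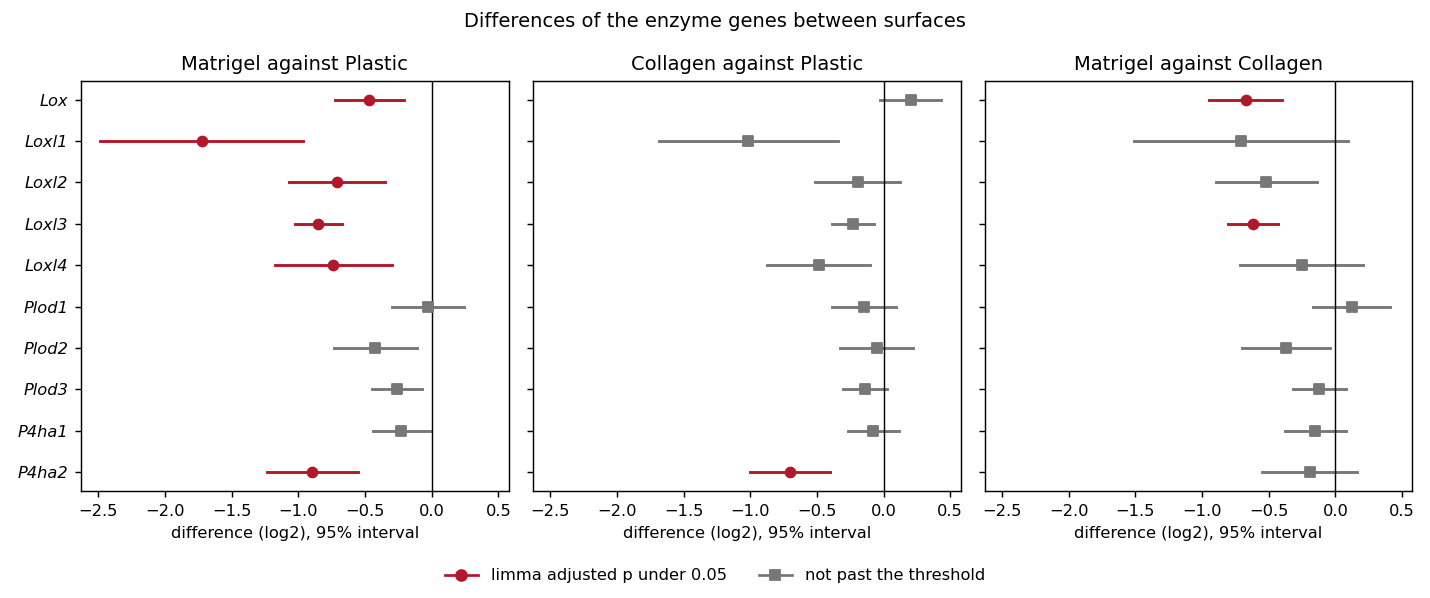
Differences of the 10 enzyme genes (horizontal axis, log2) in the 3 comparisons, with limma's 95% interval; red circles passed at an adjusted p under 0.05 and grey squares did not. On Matrigel against plastic the 5 lysyl oxidases and P4ha2 are red, on collagen I against plastic only P4ha2 is, and on Matrigel against collagen I only Lox and Loxl3 are.

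For 8 of the 10 genes the means ran in the order Matrigel, collagen I, plastic from low to high. The share of all genes with this order was not counted, so the 8 are given as a description. In this order the Matrigel and collagen I means of Loxl1, Loxl2, Loxl4, Plod2, Plod3, P4ha1 and P4ha2 were not told apart by the test, nor were the collagen I and plastic means of Loxl3 and of any of these but P4ha2. Lox ran Matrigel, plastic, collagen I, and Plod1 ran collagen I, Matrigel, plastic without a difference that passed. Among the 10 genes, P4ha2 correlated most with Loxl1 (r = 0.887) and Lox with Plod2 (r = 0.854) over the 9 arrays, while Lox and Loxl1 had r = 0.248. These correlations share the arrays and their 3 surfaces and are given as a description. Over the same 9 arrays and 8703 genes above the dim level, the genes most like P4ha2 were Adamts5 (r = 0.993), Armc10 (r = 0.987) and Aldh9a1 (r = 0.985). Those most like Loxl1 were Gamt, Arhgap24 and Cyb5r3 (r = 0.989, 0.977 and 0.966), and most like Loxl3 were Creb3, Cope and Ankmy2 (r = 0.989, 0.986 and 0.977). The genes most like Lox were Ptk7, Wdr48 and Timm22 (r = 0.976, 0.972 and 0.970). Loxl2 was closest to Col12a1, Col3a1 and Tpi1l1 (r = 0.966, 0.959 and 0.939), and Loxl4 to S100a16, Slc8a1 and Gprc5a (r = 0.971, 0.965 and 0.943).

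The partners of these enzymes were counted as a list. For this list and those below, the background was 10.4% of all genes called in either direction on Matrigel against plastic. It was 6.12% on collagen I against plastic and 2.67% on Matrigel against collagen I. Of 20 measured genes of collagen folding, glycosylation, propeptide cleavage and transamidation, 1 rose and 2 fell on Matrigel against plastic. The median difference was -0.10, 12 of the 20 had lower means, and 7 of the 20 had an unadjusted limma p under 0.05. Tgm2, the tissue transglutaminase that forms another kind of protein cross-link, fell by 2.43 ± 0.52 on Matrigel (limma adjusted p = 0.0200) and by 2.88 ± 0.46 on collagen I (adjusted p = 0.00740). Tll1, a relative of the procollagen C-proteinase, was at least 0.64 lower on Matrigel, where it was dim (adjusted p = 0.0107), and the procollagen N-proteinase gene Adamts3 passed upward between means that were dim on both surfaces (adjusted p = 0.0388). On collagen I 1 rose, Adamts3, by at least 0.37 (adjusted p = 0.00331), and 1 fell, Tgm2. On Matrigel against collagen I 2 fell, Fkbp14, a prolyl isomerase of collagen folding, by 0.63 ± 0.14 (adjusted p = 0.0499) and Adamts14, a procollagen N-proteinase, by 0.65 ± 0.14 (adjusted p = 0.0474).

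The subunit partners and chaperones named next were singled out after their values were seen. P4ha3, the other alpha subunit gene, was higher on collagen I, not lower as P4ha2 was, but did not pass: it differed by 0.82 ± 0.20 on collagen I against plastic (limma adjusted p = 0.0518) and by 0.03 on Matrigel (95% interval -0.49 to 0.56). P4hb, the shared beta subunit, differed by 0.05 (-0.13 to 0.23) on Matrigel and -0.03 (-0.19 to 0.12) on collagen I. The collagen chaperone gene Serpinh1 differed by -0.14 (-0.31 to 0.04) on Matrigel, and Fkbp10, which supports the telopeptide lysyl hydroxylase, by -0.23 (-0.45 to -0.01, adjusted p = 0.183).

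**Figure D4:**
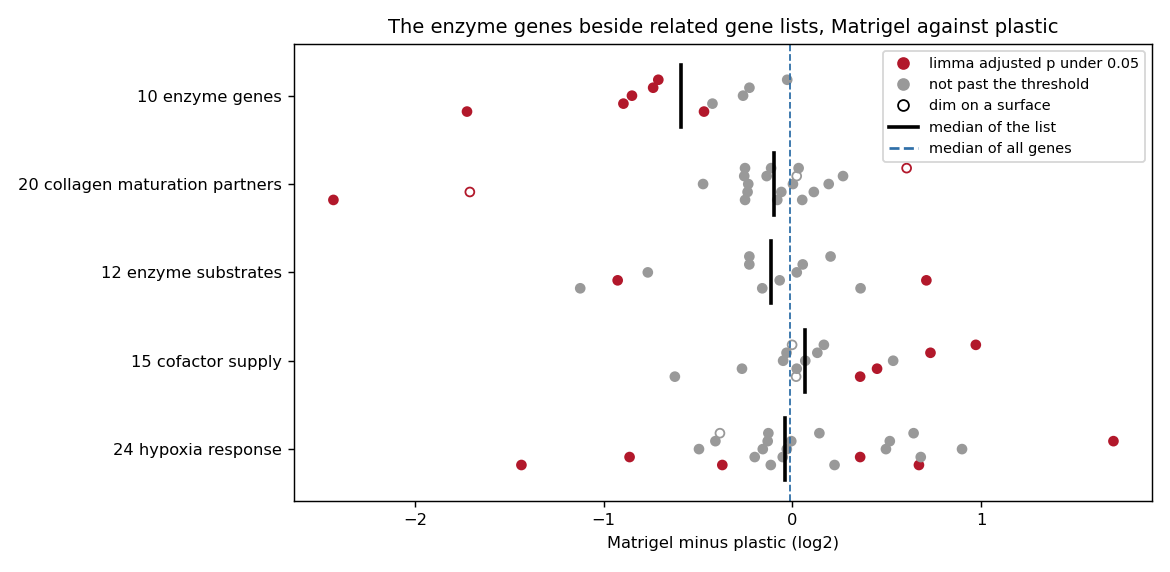
Differences on Matrigel against plastic (horizontal axis, log2) for the 10 enzyme genes and 4 related gene lists; each point is a gene, red where limma passed, open where the gene was dim on a surface so that the fitted value is no measured size, black bars are list medians and the dashed line is the median of all genes. The median of the enzyme genes is -0.59, and those of the partners, substrates, cofactor and hypoxia lists are -0.10, -0.11, 0.07 and -0.04.

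Of 12 measured substrates, the fibrillar and other collagen chains and elastin, 1 rose and 1 fell on Matrigel against plastic, with a median of -0.11. Col3a1, a fibrillar chain, fell by 0.93 ± 0.21 (limma adjusted p = 0.0238) and Col4a1, a basement membrane chain, rose by 0.71 ± 0.17 (adjusted p = 0.0296). On collagen I 2 rose, Col5a3 by 0.59 ± 0.14 (adjusted p = 0.0440) and Col27a1 by 0.36 ± 0.09 (adjusted p = 0.0448), and 0 fell. Of the 12, 5 had lower means there and 7 on Matrigel, and 5 and 4 had an unadjusted limma p under 0.05. The elastin gene Eln, singled out after its values were seen, differed by -1.94 ± 0.56 on collagen I and -1.12 ± 0.63 on Matrigel. Neither passed (limma adjusted p = 0.0907 and 0.335). Between the matrices 0 substrates passed by limma, with 4 at an unadjusted p under 0.05.

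Of 15 genes that supply copper, iron, ascorbate or 2-oxoglutarate, 4 rose on Matrigel against plastic and 0 fell. The share of all genes called in either direction there was 10.4%. Slc23a2, an ascorbate transporter, rose by 0.97 ± 0.17 (limma adjusted p = 0.00917), Slc11a2, an iron transporter, by 0.73 ± 0.13 (adjusted p = 0.00968), and Atp7a, the copper pump that loads lysyl oxidases, by 0.45 ± 0.09 (adjusted p = 0.0144). Slc11a2 also rose on collagen I, by 0.67 ± 0.11 (adjusted p = 0.0106), the only call among the 15 there.

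Of 24 hypoxia response genes, 3 rose and 3 fell on Matrigel against plastic, with a median of -0.04, and 1 rose and 4 fell on collagen I, with a median of 0.00. Egln3, which encodes an oxygen-sensing prolyl hydroxylase, rose by 1.70 ± 0.26 on Matrigel and 1.27 ± 0.23 on collagen I (limma adjusted p = 0.00474 and 0.0123), while Adm, the adrenomedullin gene, differed by -1.44 ± 0.23 and -1.68 ± 0.20 (adjusted p = 0.00602 and 0.00203). Slc2a3, a glucose transporter gene, fell by 0.86 ± 0.19 on Matrigel (adjusted p = 0.0228) and also differed between Matrigel and collagen I, by -1.05 ± 0.20 (adjusted p = 0.0345), the only hypoxia gene to do so. Of 10 other 2-oxoglutarate hydroxylases 1 rose, Egln3, and 1 fell on Matrigel, Phyh of peroxisomal phytanic acid breakdown, by 0.51 ± 0.10 (adjusted p = 0.0174); Egln3 was the only call on collagen I.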

How the data were processed

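The data are 9 Affymetrix rat gene arrays of stellate cells. The authors deposited log2 expression values made with RMA, per the submitters' processing notes; not given in the sources used here were its software and build. They were not normalized again. Of 29215 entries, 15310 had 1 gene symbol in the array's probe table, 323 several and 13582 none; the entry with the highest mean was kept per gene, which gave 14506 genes. The Entrez identifiers of all 10 enzyme genes were in a RefSeq gene table, with unchanged symbols. Deposited values repeat exactly between arrays for 8192 genes, the enzyme genes Loxl2 and Loxl4 among them.

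The 9 arrays entered a linear model with a mean for each surface (limma 3.58.1, R 4.3.3; 6 residual degrees of freedom), moderated by empirical Bayes, with Benjamini-Hochberg adjustment over all genes in each of 3 comparisons; the code was tested on simulated data. The enzyme genes and all lists were chosen with earlier results of these data known. Named were all enzyme genes, up to 3 passing members per list and comparison with the smallest p, 5 defining markers, and the 3 most correlated genes of each enzyme gene that passed; the text prints part of these. Where a mean was under log2 4.25, a difference is given as a lower bound, the brighter mean minus the dim mean with each dim array standing at the higher of its value and the level.

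Deviations from group means correlated, across genes, between same-letter collagen I and plastic arrays at r = 0.196 (A), 0.234 (P) and 0.269 (Z). All were over 0.1, but values between different letters reached 0.243, for collagen I letter A with plastic letter S. Letter A was therefore not set apart as a pair. The main model had no letter term, and letters entered only the within-letter differences and some alternative fits. Same-letter values for Matrigel and plastic were -0.131 (A) and 0.406 (S), and letters were not read as pairs. The alternatives were 11 settings of normalization, filter, moderation, weights, pairing and samples, and leaving out each of the 9 arrays. The number of arrays limits the precision.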

Additional observations from a re-analysis of the deposited data

Results flagged for a closer look

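Lox on plastic had an array apart from the others: plastic replicate 3 (letter S) read 10.93 against 11.11 to 11.12 on the other plastic arrays, and its gap was 0.951 of the group's whole range, above the value set for 4 arrays. Chance flags about 1 in 20 groups, and the 10 enzyme genes were each examined on plastic. Without this array Lox still passed on Matrigel against plastic (limma adjusted p = 0.0215).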

How the results depend on the processing

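Of the 6 calls on Matrigel against plastic, that of Loxl3 held under all 20 alternatives, P4ha2 lost it under 2, Loxl1 under 3, Loxl2 under 4, Lox under 7 and Loxl4 under 13, without a change of direction. The P4ha2 call on collagen I was lost under 2 of 20. Leaving out 1 array gave 1 to 6 enzyme genes (759 to 1461 of all genes) on Matrigel against plastic, 0 to 1 (552 to 870) on collagen I against plastic, and 0 to 2 (68 to 352) on Matrigel against collagen I. With only plastic arrays of shared letters, 1 enzyme gene and 628 genes passed on Matrigel against plastic. With the letter as a fixed replicate block, 2 enzyme genes passed on collagen I, and on Matrigel against collagen I 0 did (4 at an unadjusted p under 0.05), with 66 genes in all; Lox and Loxl4 did not pass on Matrigel against plastic (adjusted p = 0.0975 and 0.0602), and the block changed no other enzyme call. As a random block the letter changed no enzyme call. With only the compared surfaces in the fit, limma called 0 genes between Matrigel and collagen I (2094 at an unadjusted p under 0.05) and 0 enzyme genes (2 at an unadjusted p); that fit has fewer arrays to estimate the spread. Array weights called 257 genes there. Loxl4 did not pass on Matrigel against plastic with every entry tested, only the compared groups or array weights (adjusted p = 0.0610, 0.104 and 0.104). Differences that changed sign were all among uncalled values. On Matrigel against plastic Plod1 was 0.036 after quantile normalization again, and -0.21 to 0.16 with 1 array left out. On Matrigel against collagen I the fixed block gave 0.024 for Loxl4 and -0.049 for Plod1, and leaving out 1 array -0.066 to 0.31 for Plod1 and -0.41 to 0.022 for P4ha2. On collagen I against plastic Plod2 lay between -0.16 and 0.064 with 1 array left out. Where no array count shows the cause, the cause was not tested. Re-centring moved the median difference of all genes on Matrigel from -0.01 to -0.07 and turned 655 higher and 849 lower calls into 512 and 1036, and those between the matrices from 176 and 211 into 122 and 259; the enzyme calls were unchanged in number and direction under both renormalizations. Testing every entry gave 1104 higher and 961 lower on Matrigel against plastic.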
